A study of Mus musculus with 8 samples.

Results

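Tlr7, Tlr13, C5ar1, Ccr1, Il1r1 and Csf1 are 6 mouse genes of innate immune recognition and its surroundings. Of 28853 probe sets with values, only those in the authors' deposited list have names, so further probe sets of these genes may go unseen. Each gene was found by its symbol at 1 probe set of that list, which holds 1264 probe sets, of which 1081 carry a single symbol. That list was selected on the values of these same 8 arrays, by a p-value under 0.05 in an analysis of variance over the 4 groups compared below, so every group difference of these genes had a part in their being listed and is given as a description. In the authors' deposited table the p-values of the 6 genes ran from 0.0142 for Tlr13 to 0.0451 for Il1r1, the one nearest the threshold. The next probe set above the threshold had a p-value of 0.05001, recomputed from the values, and is unnamed here. The name innate sensors and chemoattractant receptors covers 4 of the 6. Il1r1 is a cytokine receptor and Csf1 is a secreted growth factor. In RefSeq Il1r1 lies on chromosome 1, Csf1 on 3, C5ar1 on 7, Ccr1 on 9, and Tlr7 and Tlr13 on X, as does Mir223.

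The study profiled C57/BL6 mouse bone marrow carrying retroviral Hoxa9, with a neomycin resistance gene, and Meis1, with YFP, a pair of factors that keeps marrow progenitors growing and is linked to leukaemia. All groups share this background, the 2 days of stimulation before transduction on irradiated producer cells, the YFP sort and the selection in 1.4 mg/ml neomycin. The labels form 4 groups of 2 arrays, numbered replicates 2 and 3. WT_MIG is wild type for miR-223, and KO_MIG, KO_223mut and KO_starmut are mir-223-/-. From the names, KO_223mut is read here as knockout cells with a vector changed in the guide strand of miR-223, and KO_starmut as knockout cells with a vector changed in the passenger (star) strand, which leaves the other strand intact in each. MIG is read as the marker vector without microRNA. The labels spell out neither, and they do not give the age of the mice, the number of mice behind a culture or whether a culture grew from few clones. The series calls its replicates biological without naming separate mice or cultures, so the errors measure the spread between these arrays.

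Toll-like receptors detect microbial molecules, and Tlr7 (single-stranded RNA) and Tlr13 (bacterial ribosomal RNA) do so inside endosomes. C5ar1 binds the complement fragment C5a and Ccr1 binds chemokines such as Ccl3 and Ccl5, and both draw myeloid cells to inflamed tissue through G proteins. Il1r1 passes on the signal of interleukin 1 through the same adaptor, Myd88, that most Toll-like receptors use, and Csf1 sustains monocytes and macrophages. miR-223 is a microRNA of myeloid cells. A microRNA lowers transcripts that pair with its seed, so its loss is known to raise direct targets.

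The mature strands of miR-223 are shown because the vectors differ in which of them is changed. Capitals mark the seed, bases 2 to 8, and the sequences are those of RefSeq on GRCm38.p6, plus strand. The passenger strand lies at chrX:96242842-96242864 and the guide strand at chrX:96242884-96242905.
mmu-miR-223-5p: cGUGUAUUugacaagcugaguug
mmu-miR-223-3p: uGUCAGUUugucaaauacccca
The seeds, GUGUAUU in the passenger and GUCAGUU in the guide, are identical at 4 of 7 positions, so the strands belong to different seed families. The labels do not give the changed bases of the vectors.

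Values are log2 signals from which the median of the probe set across the 8 arrays was subtracted. They show differences between arrays and no level above background, so no gene can be set above another. For the same reason the labelled tissue could not be checked against the levels of its markers. The probe set listed under F630028O10Rik and Mir223 read -0.98 and -1.07 in WT_MIG and -0.08 to 0.15 in the 6 knockout arrays. The KO_MIG signal exceeded the WT_MIG signal by 1.09 ± 0.09 (log2, SE, limma adjusted p = 0.0104), which is opposite to the loss of a transcript. The labels do not say whether its probes lie inside the deletion. The genotype labels were therefore not checked by it, and directions below rest on the genotype as labelled.

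Of the 6 genes, 5 (Tlr7, Tlr13, C5ar1, Ccr1 and Csf1) read higher in both WT_MIG arrays than in all 6 knockout arrays. Over all probe sets 4.75% had that order, and over the single-symbol probe sets of the authors' list 18.0%. The listing favours such genes, so nothing is read from the share. The exception was Il1r1, whose WT_MIG arrays lay within the range of the knockout arrays. In bulk RNA of this kind, fewer cells of a type and less RNA per cell cannot be told apart.

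**Figure D1:**
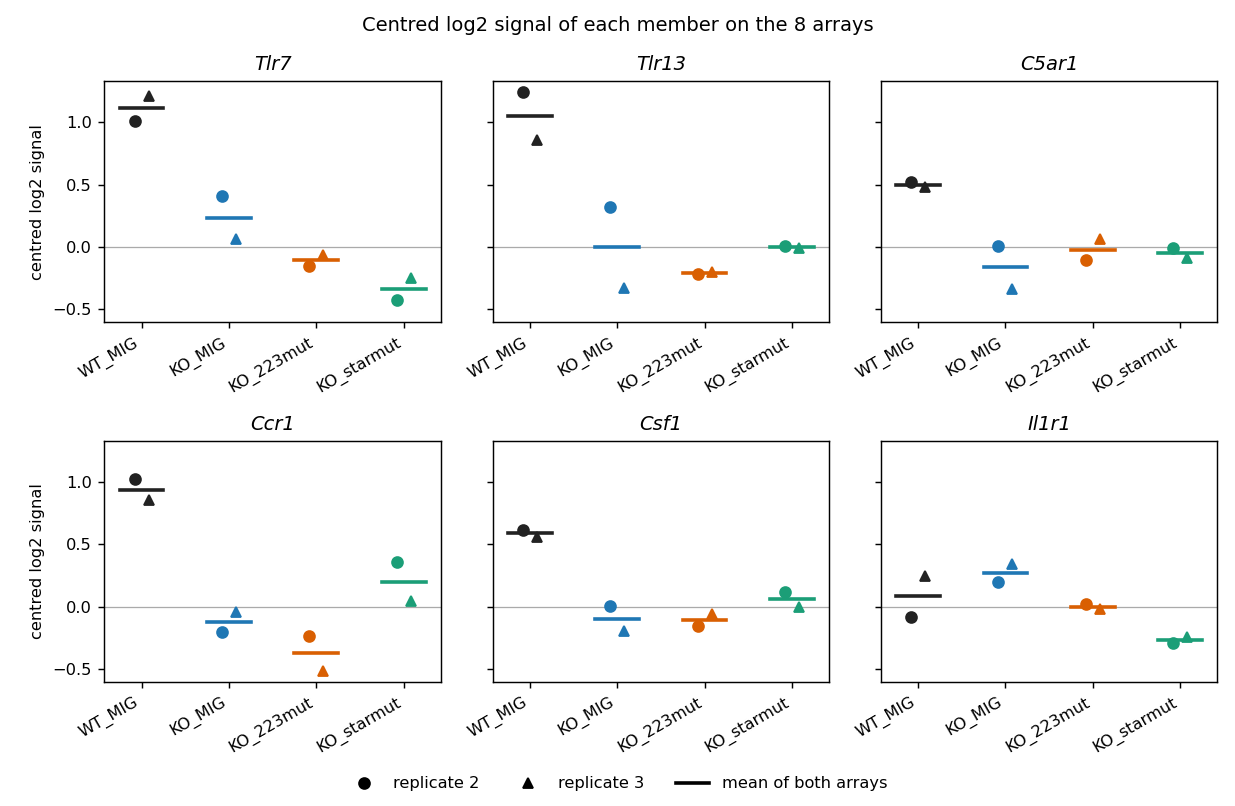
Centred log2 signal (y axis) of the 6 genes in the 4 groups (x axis), with a circle for replicate 2, a triangle for replicate 3 and a bar for their mean. For Tlr7, Tlr13, C5ar1, Ccr1 and Csf1 both WT_MIG arrays lie above all 6 knockout arrays, and for Il1r1 they do not.

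Tlr7, the endosomal receptor for single-stranded RNA, read 1.01 and 1.21 in the WT_MIG arrays of replicates 2 and 3. It read 0.41 and 0.06 in KO_MIG, -0.15 and -0.06 in KO_223mut, and -0.42 and -0.25 in KO_starmut. The groups thus ran from WT_MIG through KO_MIG and KO_223mut to KO_starmut with no overlap between any pair of neighbours. The difference from WT_MIG was -0.88 ± 0.13 in KO_MIG (log2, SE, 2 arrays per group), a 1.84-fold lower signal. It was -1.22 ± 0.13 in KO_223mut (2.33-fold) and -1.45 ± 0.13 in KO_starmut (2.73-fold). Of the 3 knockout groups Tlr7 was lowest with the star-mutant vector, and the 95% interval of its difference from KO_MIG ran from -0.87 to -0.27. The limma adjusted p of that difference over all probe sets was 0.847. Against KO_223mut the interval, -0.53 to 0.07, held 0, so the last step in the order is within the error of the fit.

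Tlr13, which recognises bacterial ribosomal RNA in mice, read 1.24 and 0.86 in WT_MIG. Its KO_MIG arrays lay far apart, at 0.32 and -0.33, while KO_223mut read -0.22 and -0.20 and KO_starmut 0.00 and 0.00. The knockout groups overlapped in part, with KO_MIG spanning both others. The differences from WT_MIG were -1.05 ± 0.20 in KO_MIG, -1.26 ± 0.20 in KO_223mut and -1.05 ± 0.20 in KO_starmut, or 2.07-fold, 2.39-fold and 2.07-fold lower signal. Among knockout groups the 95% intervals all held 0, and that of KO_223mut minus KO_MIG ran from -0.68 to 0.26.

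Ccr1, the chemokine receptor, read 1.02 and 0.85 in WT_MIG, -0.20 and -0.04 in KO_MIG, and -0.24 and -0.52 in KO_223mut. With the star-mutant vector it read 0.36 and 0.04. KO_starmut was therefore the highest knockout group for Ccr1 and KO_223mut the lowest, and neither overlapped KO_MIG. Against WT_MIG the differences were -1.06 ± 0.14 in KO_MIG (2.09-fold lower), -1.31 ± 0.14 in KO_223mut (2.49-fold) and -0.74 ± 0.14 in KO_starmut (1.67-fold). KO_starmut minus KO_223mut was 0.58 ± 0.14, with a 95% interval from 0.26 to 0.89, and it was 0.59 within replicate 2 and 0.56 within replicate 3. Its limma adjusted p over all probe sets was 0.9998. For Ccr1 the order of KO_MIG and KO_223mut was within the error, the interval running from -0.57 to 0.06.

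C5ar1, the receptor of the complement fragment C5a, read 0.52 and 0.48 in WT_MIG. In the knockouts it read 0.01 and -0.34 (KO_MIG), -0.10 and 0.06 (KO_223mut), and -0.01 and -0.09 (KO_starmut). The 3 knockout groups overlapped each other. Differences from WT_MIG were -0.66 ± 0.12, -0.52 ± 0.12 and -0.55 ± 0.12 in the same order, 1.44-fold to 1.58-fold lower signal. Between knockout groups they lay between -0.03 and 0.14 with 95% intervals that held 0, the widest bound being 0.41.

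Csf1, the macrophage growth factor, was 0.62 and 0.56 in WT_MIG, 0.00 and -0.20 in KO_MIG, -0.16 and -0.06 in KO_223mut, and 0.12 and 0.00 in KO_starmut. Both wild-type arrays stood above the knockouts by at least 0.44. Csf1 differed from WT_MIG by -0.69 ± 0.09 in KO_MIG (1.61-fold lower), -0.70 ± 0.09 in KO_223mut (1.62-fold) and -0.53 ± 0.09 in KO_starmut (1.45-fold). Among the knockouts KO_MIG and KO_223mut differed by 0.01, and KO_starmut was the highest, with 95% intervals that held 0 against both. Csf1 and C5ar1 had the nearest values of any pair of the 6 genes, with a root-mean-square difference of 0.10 over the 8 arrays, against 0.27 for the next pairs, Ccr1 with Csf1 and Tlr7 with Tlr13.

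Il1r1, the signalling receptor of interleukin 1, did not separate the genotypes. It read -0.09 and 0.25 in WT_MIG, 0.19 and 0.34 in KO_MIG, 0.02 and -0.02 in KO_223mut, and -0.29 and -0.24 in KO_starmut. Both KO_starmut arrays were below the other 6 arrays, and KO_MIG was the highest group. KO_starmut minus KO_MIG was -0.53 ± 0.11 (1.45-fold lower, 95% interval -0.79 to -0.27), with a limma adjusted p of 0.767. It was -0.48 within replicate 2 and -0.58 within replicate 3. KO_223mut lay between, at -0.27 ± 0.11 from KO_MIG. Against WT_MIG, KO_starmut differed by -0.35 ± 0.11 (limma adjusted p = 0.376), a value that was -0.52 without WT_MIG replicate 2 and -0.18 without WT_MIG replicate 3. The order of KO_MIG, WT_MIG and KO_223mut is within the error between neighbours.

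**Figure D2:**
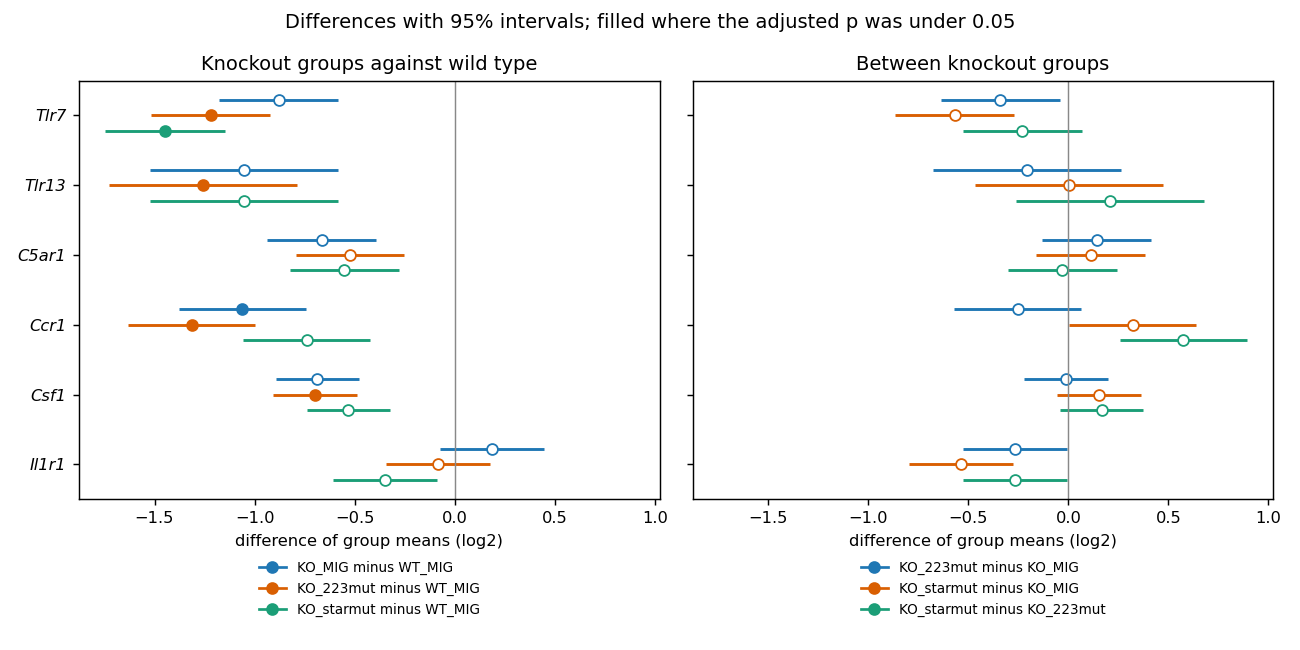
Differences of group means (log2, x axis) with 95% intervals from limma for the 6 genes, for the 3 knockout groups against WT_MIG (left) and between knockout groups (right). Filled circles mark an adjusted p under 0.05 over all probe sets. Against wild type 5 genes lie below 0 in all knockout groups, by 0.52 to 1.45 on the log2 scale, and no circle is filled on the right.

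The comparison of each knockout group with WT_MIG asks what goes with the loss of miR-223, alone or with a mutant vector added back. Calls are given at a limma adjusted p under 0.05 over all 28853 probe sets. Since the listing used the same differences, they describe where the genes stand among all probe sets and support nothing further. The 3 comparisons also share the WT_MIG arrays, so they do not repeat one another independently. The arrays of 5 of the 6 genes lay wholly below WT_MIG in KO_MIG (12.6% of all probe sets), 5 in KO_223mut (14.6%) and 6 in KO_starmut (20.2%), the sixth being Il1r1.

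In KO_MIG 1 of the 6 genes was called, Ccr1, lower with an adjusted p of 0.04999 (0.0832% of all probe sets were called lower). Csf1 followed at 0.0540, Tlr7 at 0.0870, C5ar1 at 0.126 and Tlr13 at 0.146. With the replicate number as a block, 5 genes were called lower, all but Il1r1, with adjusted p-values from 0.0118 for Ccr1 to 0.0490 for C5ar1 (0.596% of all probe sets were called lower). The Ccr1 call without the block was lost when any 1 of the 8 arrays was left out, with adjusted p-values from 0.0580 to 0.283. All 5 differences kept their sign within each replicate number, as they must where both WT_MIG arrays lie above all knockout arrays. The difference of Tlr7 was -0.61 within replicate 2 and -1.15 within replicate 3, and that of C5ar1 was -0.51 and -0.82.

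In KO_223mut 4 genes were called lower than in WT_MIG (0.530% of all probe sets were called lower). Tlr7 and Ccr1 had an adjusted p of 0.00659, Csf1 of 0.0161 and Tlr13 of 0.0452, and C5ar1 missed at 0.145. The same 4 genes were called with the block (1.67% of all probe sets). Calls of these genes without the block were lost for Tlr7 without either KO_223mut array (adjusted p = 0.0586 and 0.0573), and for Ccr1 without either of them or WT_MIG replicate 2 (0.0543 to 0.0573). The Csf1 call was lost without either array of KO_223mut or WT_MIG (0.0649 to 0.139). That of Tlr13 was lost without any array of these groups or of KO_starmut (0.0742 to 0.272).

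In KO_starmut 1 gene, Tlr7, was called lower than in WT_MIG, with an adjusted p of 0.00746 (0.149% of all probe sets were called lower). Csf1 stood at 0.0631, Ccr1 at 0.0893, Tlr13 at 0.105 and C5ar1 at 0.139. With the block Tlr7, Tlr13, Ccr1 and Csf1 were called, at 0.00412 to 0.0262 (1.03% of all probe sets). The Tlr7 call without the block was lost without KO_starmut replicate 2 (adjusted p = 0.0645). Quantile normalization ended all calls of the 6 genes made without the block, in the 3 comparisons with WT_MIG, except that of Ccr1 in KO_223mut. The median difference of the 6 genes from WT_MIG was -0.78 in KO_MIG, -0.96 in KO_223mut and -0.65 in KO_starmut. The median of all probe sets lay between -0.01 and 0.02. Since the listing used these differences, nothing is read from this contrast.

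The comparisons among knockout groups ask what each mutant vector does in cells without miR-223. In limma none of the 6 genes was called in any of them, with or without the block. Without it 0.00% of all probe sets were called, and with it at most 0.00347%, in KO_starmut against KO_223mut. At an unadjusted p under 0.05 there were 2 of the 6 in KO_223mut against KO_MIG, 3 in KO_starmut against KO_MIG and 2 in KO_starmut against KO_223mut, where 4.06%, 4.20% and 4.71% of all probe sets had such a p. The arrays of KO_223mut lay wholly below those of KO_MIG for Tlr7, Ccr1 and Il1r1 (13.9% of all probe sets), and for none were they wholly above (14.7%). For KO_starmut against KO_MIG, Tlr7 and Il1r1 were wholly lower (19.6% of all) and Ccr1 wholly higher (11.0%). Against KO_223mut, KO_starmut was wholly lower for Tlr7 and Il1r1 (21.4%) and wholly higher for Tlr13, Ccr1 and Csf1 (10.6%). The listing used the differences among these groups too, so nothing is read from these counts or from those at an unadjusted p. The comparisons with KO_MIG share that group's arrays. For Tlr7, Tlr13, C5ar1 and Csf1 the replicates lay farther apart in KO_MIG than in any of the 3 other groups. KO_223mut minus KO_MIG was -0.54 within replicate 2 and 0.13 within replicate 3 for Tlr13, -0.11 and 0.40 for C5ar1, and -0.16 and 0.14 for Csf1, so its sign differed between the replicate numbers.

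The authors' list also names 16 of the 192 other symbols in 8 lists of these pathways, and no others could be followed. Some genes stand in the lists under both an older and a newer symbol, so these totals count symbols. The listing makes their directions no independent evidence. Both named Toll-like receptors of the 13 in that list are Tlr7 and Tlr13 themselves. Of the Toll-like receptor chaperones, adaptors and signalling genes 1 of 31 was named, Lgmn, an endosomal protease, at 0.20 in WT_MIG and -0.25 in KO_MIG (group means), with WT_MIG arrays of -0.04 and 0.43 that overlapped the knockouts.

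Among 40 other innate sensors 7 were named. Without the block 2 of the 7 were called lower than wild type in KO_223mut (0.530% of all probe sets). None was called in KO_MIG (0.0832% of all were called lower) or KO_starmut (0.149%). Clec4d, a C-type lectin receptor of myeloid cells, read 0.52 and 0.40 in WT_MIG, -0.06 and 0.06 in KO_MIG, -0.32 and -0.26 in KO_223mut, and 0.02 and -0.02 in KO_starmut. It fell by 0.75 ± 0.08 in KO_223mut (log2, limma adjusted p = 0.00659), and with the block it was called in KO_MIG (-0.46) and KO_starmut (-0.46) too. Nlrp3, the inflammasome sensor, fell by 0.80 ± 0.09 in KO_223mut (limma adjusted p = 0.00955). It was lower too, without a call, in KO_MIG (-0.46 ± 0.09, limma adjusted p = 0.180) and KO_starmut (-0.30 ± 0.09, limma adjusted p = 0.343). The other 5, Nod1, Aim2, Tmem173 (the cyclic dinucleotide adaptor STING), Marco and Eif2ak2, were not called against WT_MIG and had group means within 0.33 of each other.

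Of 44 symbols in the list of chemoattractant receptors 3 were named beside Ccr1 and C5ar1, and none of the 3 was called against wild type. Niacr1, the receptor of nicotinic acid and ketone bodies now named Hcar2, read 0.70 and 0.42 in WT_MIG, -0.01 and -1.01 in KO_MIG, -0.45 and -0.42 in KO_223mut, and 0.08 and 0.01 in KO_starmut. Its WT_MIG arrays were above all knockout arrays, but the KO_MIG replicates lay far apart and the difference was -1.07 ± 0.27 (limma adjusted p = 0.37). The adenosine receptor Adora3 and the eotaxin receptor Ccr3 did not have that order. Among 26 symbols of chemoattractant ligands only C3, the complement component, was named, with group means from -0.26 to 0.05 and no call.

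Downstream of these receptors, 3 of 15 inflammatory genes were named. Cd80, a costimulatory ligand for T cells, read 0.74 and 0.73 in WT_MIG and -0.19 to 0.12 in the knockout arrays. It fell by 0.77 ± 0.11 in KO_223mut (limma adjusted p = 0.0240) and by 0.81 ± 0.11 in KO_starmut (adjusted p = 0.0380), and in KO_MIG it was at -0.74 ± 0.11 (adjusted p = 0.0844, or 0.0173 with the block). Tnf and Il23a were not called. Of 15 colony-stimulating factors and receptors Flt3 was named beside Csf1, at -0.58 ± 0.12 in KO_starmut against WT_MIG (adjusted p = 0.127, or 0.0463 with the block). In the interleukin 1 family of 14 genes Il1r1 alone was named.

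**Figure D3:**
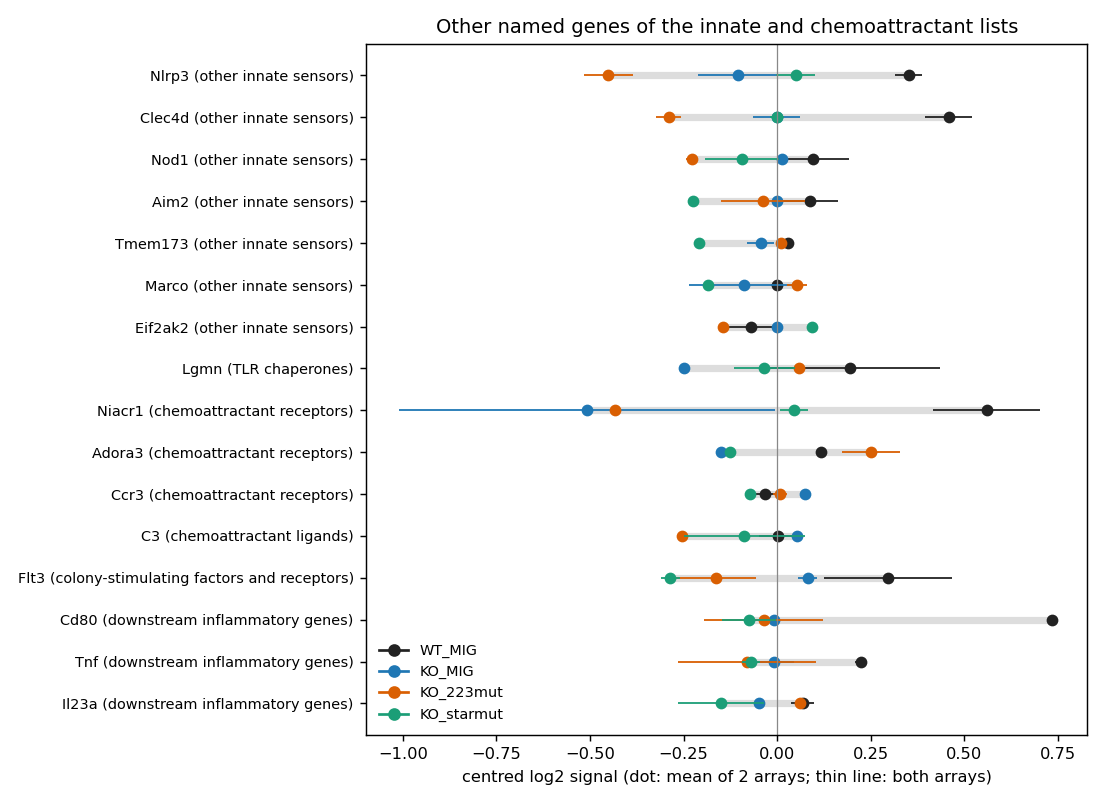
Centred log2 signal (x axis) of the 16 other named genes of the lists (y axis, list in brackets), with a dot for each group's mean of 2 arrays and a thin line joining both arrays. The WT_MIG mean of Cd80 is 0.73 against -0.08 to -0.01 in the knockout groups, and Niacr1 has the widest spread in KO_MIG.

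Itgam, the 1 gene named from the granulocyte list, and Cd68, the 1 named from the monocyte and macrophage list, were high in wild type like 5 of the 6 genes. Of 17 granulocyte markers 1 was named, Itgam, the myeloid integrin, which read 0.71 and 0.48 in WT_MIG and -0.59 to 0.03 in the knockout arrays, and fell by 1.15 ± 0.10 in KO_223mut (limma adjusted p = 0.00659). It differed by -0.59 ± 0.10 in KO_MIG (adjusted p = 0.126, or 0.0239 with the block) and by -0.68 ± 0.10 in KO_starmut (0.0598, or 0.0103 with the block), so with the block it was called lower in all 3 knockout groups. Of 16 symbols of monocyte and macrophage markers Cd68 was named, at 0.31 and 0.28 in WT_MIG and -0.21 to 0.05 in the knockouts. It fell by 0.48 ± 0.07 in KO_223mut (limma adjusted p = 0.0252). Summed levels of these marker lists cannot be formed from centred values of 1 gene each, and the part of these markers in the result was not tested. Altogether 13 of 120 symbols in 10 marker lists were named, and WT_MIG was above all knockout arrays for Itgam, Cd68 and Flt3. That order was found in 4.75% of all probe sets and in 18.0% of the single-symbol probe sets of the authors' list. The listing favours it, so nothing is read from the count. Among the other named markers, Cd96 of T and NK cells rose by 0.61 ± 0.09 in KO_223mut (limma adjusted p = 0.0395). Cd200r3 of basophils rose by 0.92 ± 0.09 in KO_starmut (limma adjusted p = 0.0123). Ly6a of progenitors rose by 1.07 ± 0.14 in KO_starmut (limma adjusted p = 0.0409) but stood at -0.72 ± 0.14 in KO_MIG (adjusted p = 0.171) and -0.14 ± 0.14 in KO_223mut. Lmo2, the other named progenitor gene, was not called against WT_MIG. It stood above WT_MIG by 0.41 ± 0.09 in KO_MIG, 0.29 ± 0.09 in KO_223mut and 0.20 ± 0.09 in KO_starmut. Igll1 of B cells, at 0.33 in KO_MIG, was called with the block alone (adjusted p = 0.188, or 0.0455 with it). Of 16 fibroblast markers, looked at because the virus producer cells could carry over, Dcn and Mmp2 were named. Against WT_MIG, Dcn differed by 0.07 to 0.19 and Mmp2 by -0.16 to 0.14, and neither was called.

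The listed genes whose values over the 8 arrays were nearest to each of the 6 were taken by root-mean-square difference among 1075 named probe sets, as a description. Nearest to Tlr7 were Fam49a (0.19, log2), Zcchc3 (0.21) and Tmem171 (0.22), where the median named probe set was 0.62 away. Tmem171 (0.20) was also nearest to Tlr13, before Nt5e (0.21), the cell surface enzyme CD73, and Glul (0.22), glutamine synthetase. For Ccr1 they were another probe set of Glul (0.19), Frmd4b (0.21) and Glyat (0.21). C5ar1 was followed closely by Kti12 (0.08), Tbc1d9 (0.12) and Pcnp (0.12), and Csf1 by Tnfrsf8 (0.09), which is the CD30 receptor, Timp2 (0.10), a metalloproteinase inhibitor, and Txndc12 (0.11). In all of these both WT_MIG arrays were above the knockout arrays, an order that choosing them near such genes favours. The median named probe set was 0.31 away from C5ar1 and 0.34 from Csf1, against 0.58 from Tlr13 and 0.55 from Ccr1. Nearest to Il1r1 were D830046C22Rik (0.12), now the G protein coupled receptor Gpr146, Gm5426 (0.12) and the chromatin remodeller Chd7 (0.12), with a median of 0.23.

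**Figure D4:**
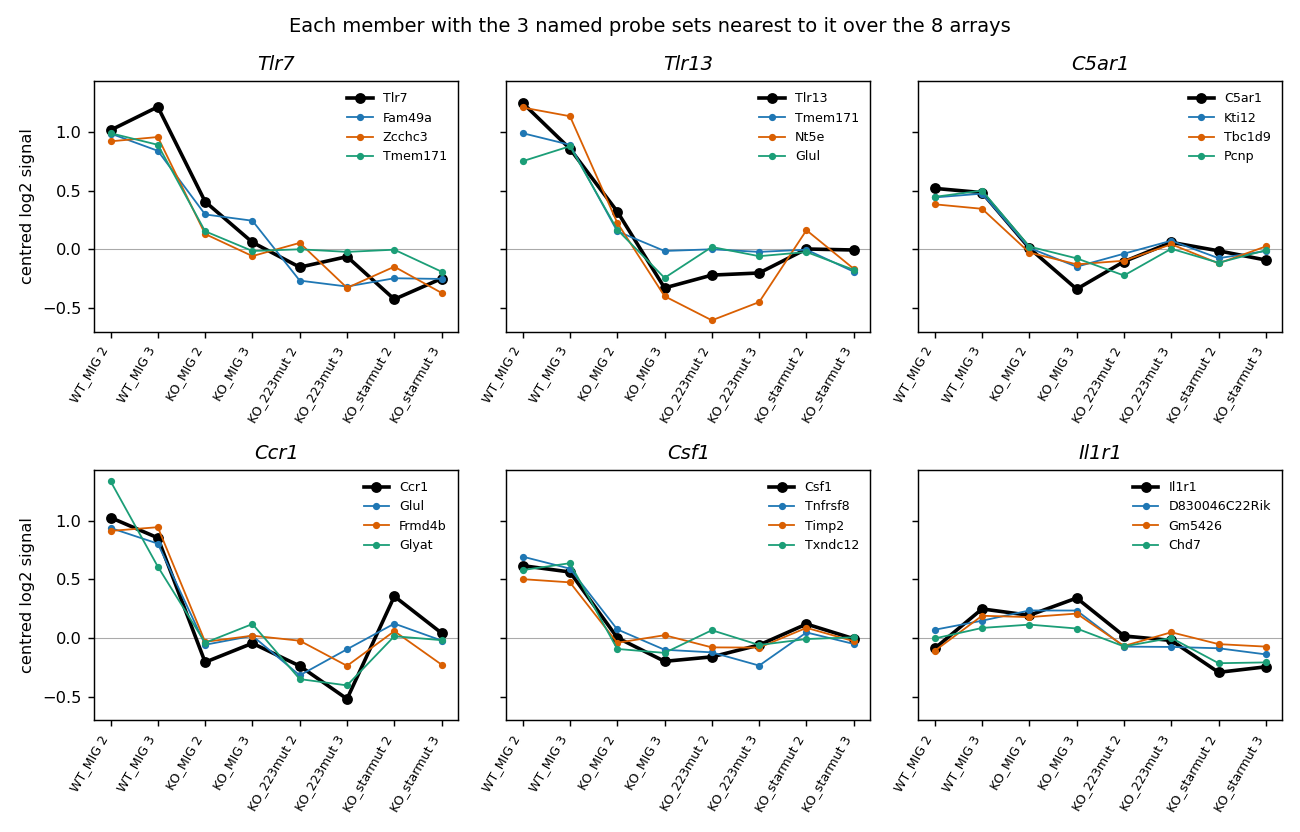
Centred log2 signal (y axis) on the 8 arrays (x axis, group and replicate number) of each of the 6 genes (black) and the 3 named probe sets nearest to it (colours). The lines join arrays for reading only. In 5 panels all lines are highest in the 2 WT_MIG arrays, and in the Il1r1 panel they lie within a narrower range.

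Promoters are shown for the 4 genes that were high in wild type and have one in the RefSeq table, since these genes were high in the same arrays. Each sequence runs from 250 bases before to 50 bases after the annotated start on GRCm38.p6, and capitals mark GAGGAA, the core bound by the myeloid factor PU.1. Tlr13 is at chrX:106143025-106143324 on the plus strand, and Ccr1 at chr9:123968643-123968942, C5ar1 at chr7:16259289-16259588 and Csf1 at chr3:107760420-107760719 are on the minus strand.
Tlr13: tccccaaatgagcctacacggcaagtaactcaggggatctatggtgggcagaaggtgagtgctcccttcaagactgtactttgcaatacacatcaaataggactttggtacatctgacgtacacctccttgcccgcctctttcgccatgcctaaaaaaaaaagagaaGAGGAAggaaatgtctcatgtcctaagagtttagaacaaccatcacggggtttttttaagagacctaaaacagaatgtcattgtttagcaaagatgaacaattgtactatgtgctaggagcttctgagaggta
Ccr1: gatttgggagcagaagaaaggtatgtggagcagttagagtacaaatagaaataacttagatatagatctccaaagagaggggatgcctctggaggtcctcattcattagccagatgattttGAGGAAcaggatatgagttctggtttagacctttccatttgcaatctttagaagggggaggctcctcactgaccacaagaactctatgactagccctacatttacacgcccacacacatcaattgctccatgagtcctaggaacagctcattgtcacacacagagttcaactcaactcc
C5ar1: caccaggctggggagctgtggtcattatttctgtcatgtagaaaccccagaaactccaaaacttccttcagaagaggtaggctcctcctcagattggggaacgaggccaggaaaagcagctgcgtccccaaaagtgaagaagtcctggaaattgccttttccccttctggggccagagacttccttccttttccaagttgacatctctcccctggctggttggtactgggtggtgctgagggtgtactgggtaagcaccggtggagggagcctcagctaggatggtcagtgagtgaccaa
Csf1: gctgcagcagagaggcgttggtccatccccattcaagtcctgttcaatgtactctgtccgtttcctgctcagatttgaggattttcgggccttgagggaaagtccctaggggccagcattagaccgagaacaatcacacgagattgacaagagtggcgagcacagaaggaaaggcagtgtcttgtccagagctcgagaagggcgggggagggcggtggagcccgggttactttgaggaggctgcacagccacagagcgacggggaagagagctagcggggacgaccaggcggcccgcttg
Of the 6 genes 5 matched the table, with 6 promoters, of which Il1r1 has 2. GAGGAA, searched on both strands, was in 2 of the 6 promoters, those of Tlr13 and Ccr1, and in 28.3% of all 32851 promoters of the same length. TTGCNNAA (C/EBP) was in 2 of the 6, of Tlr13 and Il1r1, and in 10.8% of all. TGACAG (Meis) was in 2 of the 6, of C5ar1 and Il1r1, and in 19.2% of all. TGATTNAT (Hox-type, 3.22% of all) and TGANTCA (AP-1, 7.81%) were in none of the 6, and neither was the interferon response core, GAAA and GAAA with any 2 bases between (3.44%). No matches of different motifs overlapped in these promoters, and none of them is shared by the 4 genes.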

How the data were processed

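RNA of 8 samples was hybridised to Affymetrix Mouse Gene 1.0 ST arrays, and the titles put 2 samples into each of 4 groups. Per the file headers, the authors summarised signals by RMA16 with annotation na31 on mm9, and the deposited values are log2 signals centred per probe set on its median (medians are 0 within 7.02e-07). The authors' list gives the p-value of a Welch analysis of variance over the 4 groups, without correction, per the file headers, after a filter that kept raw signals from percentile 20 up to 100. Gene names came only from that list. Its group means matched those computed here within 2.62e-07.

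The limma package (3.58.1, R 4.3.3) estimated the differences from all 28853 probe sets and 8 arrays, with 4 groups as terms, eBayes moderation (4 residual and 3.67 prior degrees of freedom), two-sided p-values and Benjamini-Hochberg adjustment over all probe sets. Errors are the moderated SE. There were 9 blank cells, on 1 array and in none of the 6 genes. Same-numbered arrays deviated together, with correlations of deviations from the group means of 0.36 to 0.53 in all 6 pairs of groups. The numbers were therefore taken to pair the arrays, from the values and not from the labels, and results with the replicate number as a block are given where they change a call. Centring leaves no level, so no filter on dim probe sets or background correction was possible. The fit was run on simulated data whose noise was independent between arrays, without the shared deviations of same-numbered arrays. That run checks the code and not the error rates in these data. Genes named are the 6 members, the list members that the authors' list names and the 3 nearest probe sets of each member. Members and lists were chosen with earlier results of these data known. The number of arrays limits the precision.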

Additional observations from a re-analysis of the deposited data

How the results depend on the processing

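In 14 alternative settings the 15 differences of Tlr7, Tlr13, C5ar1, Ccr1 and Csf1 from WT_MIG kept their sign, in 210 of 210 values. These genes had both WT_MIG arrays above all knockout arrays, so leaving out an array could not change a sign. The replicate block, robust eBayes, averaged probe sets and fits of only the 4 arrays returned the same differences. The count therefore describes the values and does not test them. Of 36 differences of the 6 genes over the 6 comparisons, 7 changed sign in some setting, none of them called. Calls over all probe sets moved more. The replicate block took them from 39 to 277 in KO_MIG against WT_MIG, from 208 to 732 in KO_223mut, from 71 to 488 in KO_starmut, and from 0 to 1 in KO_starmut against KO_223mut. Quantile normalization gave 10, 120 and 38 in the 3 comparisons with WT_MIG, and it lost every member call made without the block (adjusted p of Tlr7 0.0874 in KO_223mut and 0.064 in KO_starmut) except Ccr1 in KO_223mut. The cause was not tested. Fits of only the 4 arrays of both groups, which have fewer degrees of freedom, gave 5, 112 and 16. Leaving out 1 array gave 4 to 22, 8 to 153 and 19 to 63 calls, a lone array being assumed to vary like the others, and 0 in the comparisons among knockouts. Robust eBayes, arrays centred on their medians and averaged probe sets of a gene moved no count by over 1.5 times, although the Ccr1 call in KO_MIG was lost with robust eBayes (adjusted p = 0.0531) and averaging (adjusted p = 0.0542).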
